A study of Cucumis sativus with 6 samples.

Results

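A set of 188 cucumber genes had higher RNA levels in shoot apices from seedlings labelled as grown in germination pouches than in apices labelled as grown on soil plates. The 188 were chosen by their CPM (the estimated count divided by the library total and scaled to a total of 1000000) among 24317 transcript models. The lowest of the 3 pouch libraries had to be at least 2 times the highest of the 3 soil libraries, the mean over all 6 libraries had to be at least 10 CPM, and at least 1 soil library had to hold a count. The 795 models on unplaced scaffolds and the 100 most abundant other models were left out, which left 11355 models that reached 10 CPM and had a count in soil. These 11355 are called eligible genes below, and 1.66% of them met the 2-fold limit. Each identifier has 1 transcript model, so a model is called a gene.

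Shoot apices were dissected at 6 dpg from seedlings of 9930, an inbred line of cucumber (Cucumis sativus). The pouch libraries came from wet germination pouches, with 20 apices pooled in each of 3 replicates. The soil libraries came from soil held in an agar plate under nylon mesh, with 7 apices pooled in each of 3 replicates. Both groups shared the genotype, a temperature of 22 degrees, and days of 16 h light and 8 h dark. Number of pooled apices and growth condition cannot be told apart in this design. Whether the pools within a group came from separate sowings is not given, so the spread between replicates may be partly technical.

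The titles, library names and growth conditions in the labels name the same condition within each of the 6 libraries, but every deposited file carries the other condition in its name. The groups here follow the labels. If the file names were right, these 188 genes would be higher in soil, with the same sizes of difference.

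The shoot apical meristem is the small dome of dividing cells at the tip of the shoot from which leaves, stem tissue and, in cucumber, tendrils and flowers arise. A dissected apex holds this dome together with the youngest leaf primordia and some stem tissue, each with its own set of active genes. The transcripts of such an apex are known to vary with the age of the organs it includes and with the supply of water, light and nutrients. In bulk RNA of such a mixture, fewer cells of a type and less RNA per cell cannot be told apart.

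None of the 24317 identifiers matched the RefSeq gene table of the 9930 V3 assembly (23999 genes), and the files give no names beside the identifiers. Gene names, functions, positions and sequences are therefore not given, and the labelled tissue was not checked against its markers. Genes are described by identifier for 2 of them, and otherwise by their rank among the 188. Rank 1 has the largest ratio of lowest pouch to highest soil CPM.

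The pouch libraries held 28.9, 46.6 and 47.8 M estimated counts for replicates 1, 2 and 3, and the soil libraries 39.5, 32.2 and 30.7 M. The 188 genes took 1.21, 1.45 and 1.45% of the counts in pouch replicates 1, 2 and 3. They took 0.407, 0.365 and 0.418% in soil replicates 1, 2 and 3. The means were 1.37% ± 0.137 in pouch and 0.397% ± 0.0276 in soil (SD, n = 3 each). The 11355 eligible genes together took 77.3 to 85.5% of the counts in pouch and 70.8 to 75.5% in soil. The median ratio of the pouch mean to the soil mean was 3.29 over the 188 genes and 1.32 over the eligible genes. This lean of the eligible genes depends on the scaling, since their median log2 fold change, pouch minus soil, was 0.04 with TMM scaling.

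The median level of the 188 genes was 31.3, 41.0 and 42.6 CPM in pouch replicates 1, 2 and 3. In soil replicates 1, 2 and 3 it was 9.67, 8.76 and 8.50 CPM. Across all eligible genes the medians were 35.0, 41.9 and 42.2 CPM in pouch and 32.8, 29.97 and 29.7 CPM in soil. In pouch libraries the 188 genes thus stood near the middle of the eligible genes, whereas in soil libraries their median was below that of the eligible genes in every replicate. These levels were part of the choice, so they are a description and carry no test.

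**Figure D1:**
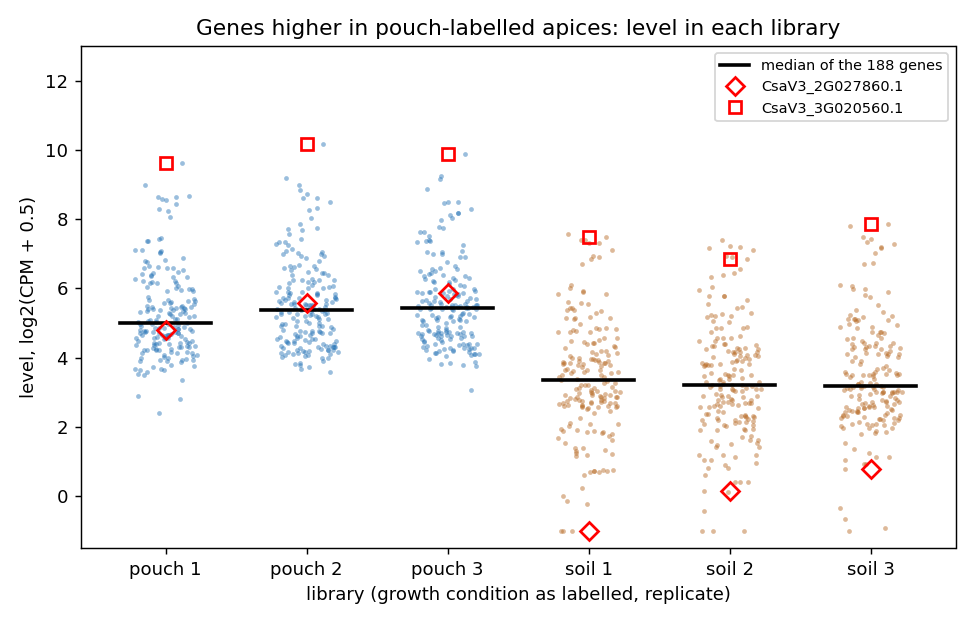
Level of each of the 188 genes in each library, as log2(CPM + 0.5), with pouch libraries in blue at the left, soil libraries in brown at the right, and black bars for the medians. The medians lie between 31.3 and 42.6 CPM in pouch and between 8.50 and 9.67 CPM in soil, and red marks show the 2 genes named in the text.

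Most of the set lay close to the limit. The median ratio of lowest pouch to highest soil was 2.30. The ratio was from 2 to under 2.5 in 122 genes, from 2.5 to under 5 in 50, and 5 or more in 16. Just inside the limit, the gene with the lowest ratio had 33.4, 37.97 and 29.02 CPM in pouch replicates 1, 2 and 3, and 14.5, 9.99 and 14.3 CPM in soil. Just outside it, a gene that was not taken had 26.6, 34.3 and 32.3 CPM in pouch, and 12.5, 8.65 and 13.3 CPM in soil. The limit does not mark a gap, since 47 eligible genes had a ratio from 1.9 to under 2 and 51 of the set had a ratio from 2 to under 2.1. By the rule, the groups do not overlap in any of the 188 genes. Among all eligible genes the lowest pouch library was above the highest soil library in 37.3%, and the lowest soil library was above the highest pouch library in 8.6%. The same 2-fold rule turned round, for genes higher in soil, was met by 73 genes. These shares and counts use library totals, and the balance of the 2 rules depends on the scaling. With TMM scaling 58 genes met the rule for genes higher in pouch, and 144 met the rule turned round.

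**Figure D2:**
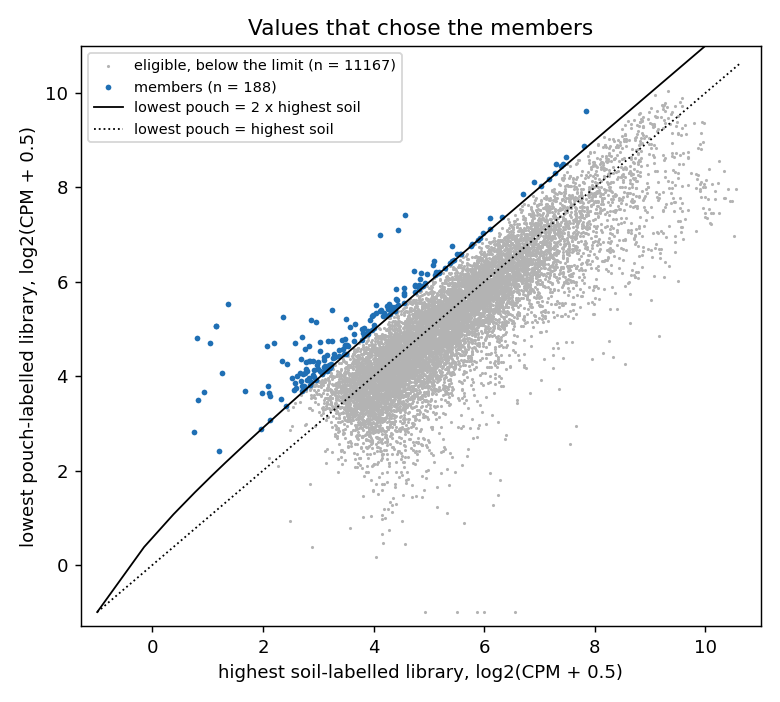
Highest soil library (horizontal axis) against lowest pouch library (vertical axis) for the 11355 eligible genes, both as log2(CPM + 0.5), with the 188 members in blue and the other 11167 in grey. The members lie along and above the solid 2-fold line with no gap at it, and 16 of them have a ratio of 5 or more.

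CsaV3_2G027860.1 (1948 bases) had the largest ratio, 22.1. It held 27.4, 47.3 and 58.2 CPM in pouch replicates 1, 2 and 3, and 0, 0.620 and 1.24 CPM in soil replicates 1, 2 and 3. In counts these are 792, 2204 and 2784 in pouch, and 0, 20 and 38 in soil. A count of 0 in soil replicate 1 allows up to 3 counts, or 0.0760 CPM, for counting error only. Every pouch library was above every soil library, and of the soil libraries replicate 1 alone was at 0. Its mean was 44.3 ± 15.6 CPM in pouch and 0.619 ± 0.619 CPM in soil (SD, n = 3 each). The log2 fold change, pouch minus soil, was 5.78 (SE 0.90) with TMM scaling, which adjusts the library totals for composition.

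The gene at rank 2 (1451 bases) held 50.5, 58.2 and 45.8 CPM in pouch, and 0, 0 and 2.08 CPM in soil. All of its soil counts, 64 in number, came from soil replicate 3. Ranks 3 and 4 (714 bases each) have identical counts in every library, with fractional values, so their reads cannot be told apart and they count as a single measurement. Each gene of that pair was assigned 42.5, 38.2 and 32.9 CPM in pouch replicates 1, 2 and 3, and 1.16, 0.837 and 1.71 CPM in soil. In both ranks 2 and 3 the pouch libraries lay close together, and the spread between soil libraries was at the level of a few CPM or less.

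Genes at rank 10, 11 and 13 combined a large ratio with a high level. Rank 10 (1277 bases) held 137, 126 and 199 CPM in pouch, and 12.1, 13.5 and 16.8 CPM in soil, with the soil libraries close together. Rank 11 (1199 bases) held 171, 460 and 604 CPM in pouch, and 12.9, 23.1 and 21.1 CPM in soil. Rank 13 (2900 bases) held 136, 205 and 213 CPM in pouch, and 21.3, 10.9 and 17.0 CPM in soil. Ranks 11 and 13 had their lowest pouch value in replicate 1, and rank 10 did not. Of the 16 genes with a ratio of 5 or more, 12 had a mean under 5 CPM in soil, and pouch replicate 1 was the lowest pouch library in 11.

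**Figure D3:**
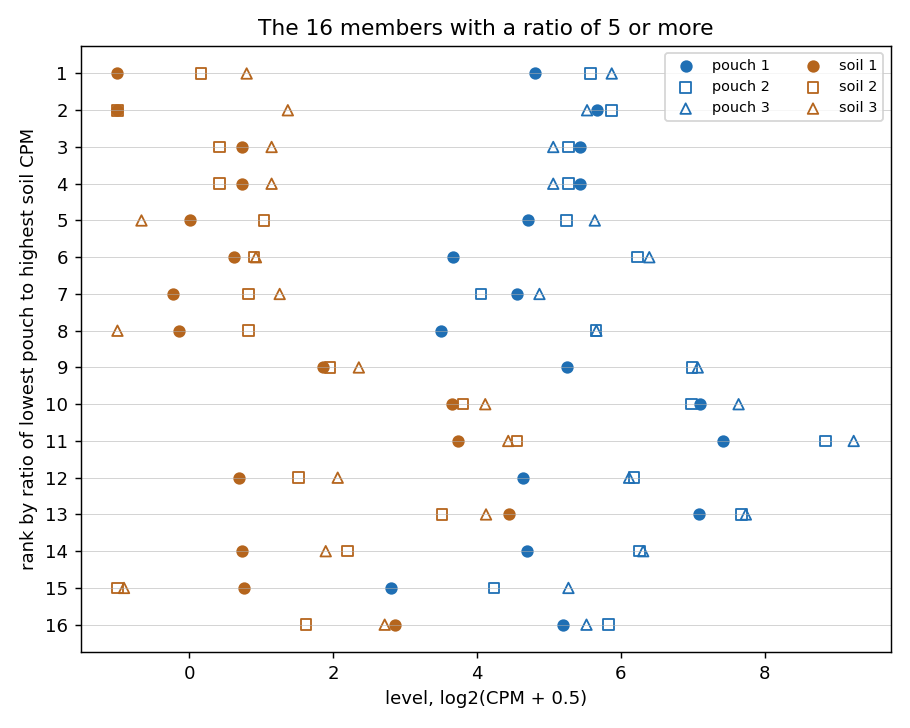
Levels of the 16 genes with a ratio of 5 or more in each of the 6 libraries, as log2(CPM + 0.5), 1 row per gene in order of rank. Blue pouch symbols lie to the right of brown soil symbols in every row by the rule. The filled blue circle of pouch replicate 1 is the lowest pouch value in 11 rows, beside 65.5% of eligible genes.

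CsaV3_3G020560.1 (1095 bases) had the highest mean CPM of the 188 genes, not corrected for length, and stood at rank 28 by ratio. It held 790, 1142 and 947 CPM in pouch replicates 1, 2 and 3, and 177, 115 and 230 CPM in soil replicates 1, 2 and 3. The lowest pouch library was 3.44 times the highest soil library, and the soil libraries differed more among themselves than the pouch libraries did in ratio. Its mean was 960 ± 176 CPM in pouch and 174 ± 57.6 CPM in soil (SD, n = 3 each). The log2 fold change, pouch minus soil, was 2.09 (SE 0.29) with TMM scaling.

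Between genes, levels can be compared only per length, as in the deposited TPM values. In pouch libraries the mean of the 188 genes had a median of 19.5 TPM and reached 1988 TPM. In soil libraries the median was 4.46 TPM and the highest mean 705 TPM. A pouch mean of at least 100 TPM was reached by 29 genes, and 39 stayed under 10 TPM. CsaV3_3G020560.1, highest by CPM, was at rank 3 per length, with 937 ± 230 TPM in pouch and 152 ± 49.7 TPM in soil (SD, n = 3 each). The highest per length were short models of 492 and 291 bases, with means of 1988 and 1974 TPM in pouch and 626 and 705 TPM in soil. Both lay near the limit, at ranks 139 and 187.

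Counts above 0 in all 3 soil libraries were present in 183 of the 188 genes (97.3%), against 11343 of the 11355 eligible genes (99.9%). The set was chosen for low soil levels, so this difference is no finding. In 3 genes a single soil library was at 0, and in 2 genes 2 soil libraries were at 0. The gene at rank 161 (432 bases) held 6.91, 65.5 and 90.2 CPM in pouch replicates 1, 2 and 3, and 0, 0 and 3.39 CPM in soil. Its soil signal of 104 counts came from replicate 3 alone, and its pouch replicate 1 was far below the other pouch libraries. The gene at rank 15 (1648 bases) held 188, 857 and 1826 counts in pouch, and 47, 0 and 1 count in soil.

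Replicates spread more in soil than in pouch among these genes. The highest pouch library was a median of 1.29 times the lowest, and reached 2 times in 29 of 188 genes (15.4%). The highest soil library was a median of 1.56 times the lowest, and reached 2 times in 55 of the 183 genes with counts in all soil libraries (30.1%). Across eligible genes these shares were 14.6% in pouch and 17.5% in soil, and the medians were 1.40 and 1.48 times. The rule limits the lowest pouch and the highest soil value, so these spreads rest on values that the choice used and carry no test. The genes of the set are lower in soil than the eligible genes, and the part of read depth in this spread was not tested. The gene at rank 118 shows such a spread, with 17.2, 18.2 and 16.8 CPM in pouch, and 7.65, 1.46 and 7.62 CPM in soil.

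Pouch replicate 1 was the lowest pouch library in 105 of the 188 genes (55.9%), replicate 2 in 35 and replicate 3 in 48. Across eligible genes pouch replicate 1 was lowest in 65.5%. Its level was within 25% of the mean of the other pouch libraries in 122 genes (64.9%, against 51.8% of eligible genes). It was under 50% of that mean in 22 genes (11.7%, against 7.64% of eligible genes), and above it by over 25% in 16. The rule used these pouch values, so the differences from eligible genes are not independent of the choice. The class of 122 genes was formed on pouch replicate 1 alone, and pouch replicates 2 and 3 can differ in it, as at rank 10.

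In the 22 genes, the medians were 14.3, 48.1 and 58.5 CPM in pouch replicates 1, 2 and 3, and 2.35, 2.47 and 4.14 CPM in soil. In the 122 genes they were 38.9, 39.7 and 38.1 CPM in pouch, and 13.4, 12.7 and 11.2 CPM in soil. The rank 75 gene (1612 bases) had the lowest share, with 10.99, 160 and 199 CPM in pouch, and 3.37, 4.09 and 4.53 CPM in soil. The rank 33 gene (1023 bases) held 26.4, 212 and 287 CPM in pouch, and 1.11, 0.837 and 8.50 CPM in soil. For such genes the limit in pouch was set by replicate 1, and the other pouch libraries were far higher. The opposite pattern was clearest at rank 156 (1393 bases), with 62.6, 11.6 and 7.94 CPM in pouch replicates 1, 2 and 3, and 2.99, 3.69 and 3.88 CPM in soil. Of the 22 genes, 7 had a ratio of 5 or more, and of the 122 genes 5 did. These groups were formed after the values were seen and carry no test.

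A library left out of the choice gives values that the choice did not use. Without pouch replicate 1, the rule took 546 genes, and 174 of them (31.9%) were at or above 2 times the highest soil library in the unused replicate 1. Among the eligible genes of that choice 2.72% were. Without pouch replicate 2, the rule took 209 genes, of which 172 (82.3%) met the limit in replicate 2, against 7.36% of eligible genes. Without pouch replicate 3, it took 195 genes, of which 166 (85.1%) met the limit in replicate 3, against 6.05%. Pouch replicates 2 and 3 met the limit in most genes chosen without them, and replicate 1 in a minority. The numbers that met the limit were alike, at 174, 172 and 166, so the shares differ mainly through the number of genes chosen. Members of the set were 173, 171 and 165 of the chosen genes, and members meet the limit by the rule. The shares rest on library totals, and the part of scaling in them was not tested. The soil values served both the choice and the reading here, so the reading is only partly independent.

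Soil libraries left out gave values in between. Without soil replicate 1, the rule took 358 genes and 199 (55.6%) met the limit against the unused library, compared with 6.83% of eligible genes. Without soil replicate 2, it took 284 genes and 200 (70.4%) met the limit, compared with 12% of eligible genes. Without soil replicate 3, it took 462 genes and 199 (43.1%) met the limit, compared with 8.75%. Of the genes that met the limit, 188, 188 and 186 were among the set, for soil replicates 1, 2 and 3. Such genes meet the 2-fold limit in all 6 libraries, so only the limits on level can keep them out of the set. This overlap is therefore largely fixed by the rule and is no check of the set.

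The position of the unused pouch library was read on a log2(CPM + 0.5) scale, on which differences of low genes are understated. In the 546 genes chosen without it, pouch replicate 1 stood a median of 1.02 above the soil mean, and the other pouch libraries 1.57. It was below the mean of the other pouch libraries in 496 of the 546 genes (90.8%), and in 73.3% of eligible genes, with a median difference of -0.27 in the eligible genes. The other pouch libraries took part in the choice by being high, which by itself tends to place an unused library below them. With TMM-scaled CPM the median difference was -0.31 in the 546 genes, with 76.4% of them below, and -0.0032 in eligible genes, with 50.3% below. Pouch replicate 1 was also the shallowest library, and the part of depth was not tested. For pouch replicates 2 and 3 the median difference from the other pouch libraries was 0.04 and -0.02 in the genes chosen without them. In eligible genes it was 0.145 and 0.113. With TMM-scaled CPM it was -0.10 and -0.15 in the chosen genes, with 65.1 and 67.7% of them below, beside 49.4 and 52.6% of eligible genes. Each pouch replicate left out thus stood lower against the other pouch libraries in the chosen genes than in the eligible genes, with either scaling.

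Leaving out a pouch and a soil library together gave a reading in which neither library had a part in the choice. The 9 such pairs were added after the data had been seen, and 299 to 1086 genes were chosen on the other 4 libraries. With pouch replicate 2 or 3 left out, the median difference of the unused pouch library from the unused soil library was 0.96 to 1.43 on the log2(CPM + 0.5) scale. The same difference over eligible genes was 0.38 to 0.56. With pouch replicate 1 left out it was 0.61 to 0.91, against 0.08 to 0.24 over eligible genes. The chosen genes stood above the eligible genes by 0.37 to 0.91 in these 9 pairs, and by 0.37 to 0.92 with TMM-scaled CPM, lowest for pouch replicate 1 with soil replicate 3. The 9 pairs share libraries and are not independent of each other.

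**Figure D4:**
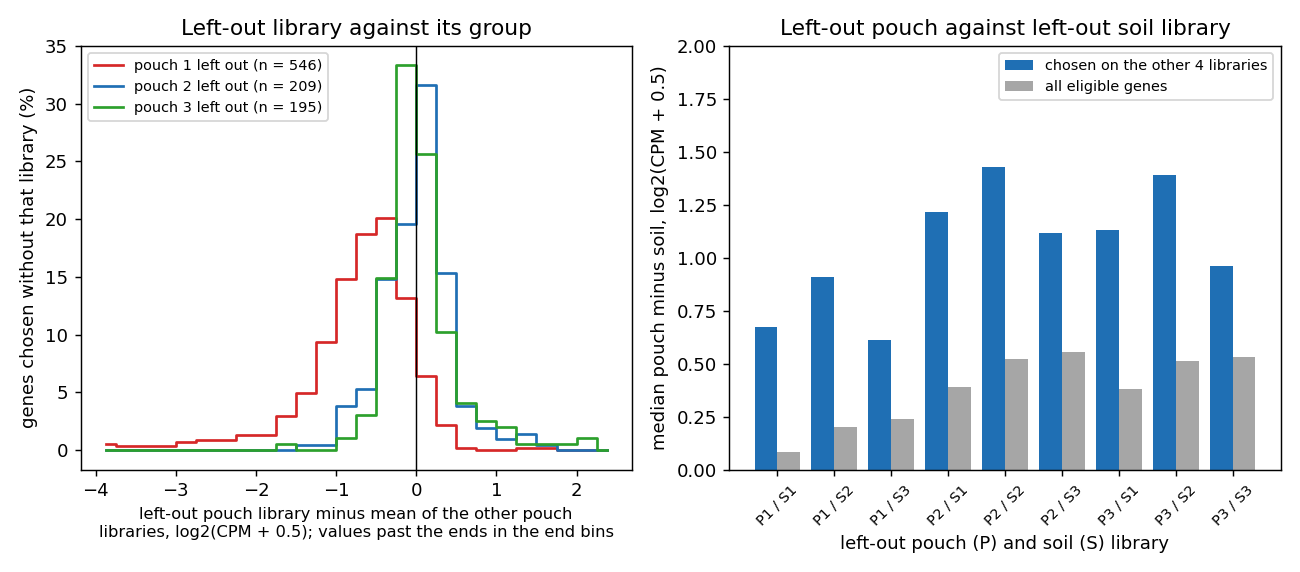
Left, the difference between a pouch library left out of the choice and the mean of the other pouch libraries, in log2(CPM + 0.5), over the genes chosen without it. Right, the median difference of an unused pouch (P) from an unused soil (S) library for genes chosen on the other 4 libraries (blue) and for all eligible genes (grey). The curve for pouch replicate 1 lies to the left of 0, with a median of -0.58, beside -0.27 over eligible genes. Each blue bar is above its grey bar.

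Over all 17794 genes tested with edgeR's quasi-likelihood test, 1396 were called at a Benjamini-Hochberg adjusted p under 0.05. Of these, 521 (2.93% of all tested genes) were called higher in pouch, and the others, which were more, were called lower. All 188 genes of the set passed the filter on low counts, and 160 of them (85.1%) were called higher in pouch and 0 lower. At an unadjusted p under 0.05 all 188 were higher in pouch, against 12% of all tested genes. The set was chosen on the same contrast, so nothing is read from these shares. Their median log2 fold change, pouch minus soil, was 1.37 with TMM scaling and ran from 0.77 to 5.86, and the median of all tested genes was 0.06. The change was at least 2-fold in 160 genes by this measure, and the log2 fold change was 2 or more in 47 and 3 or more in 21.

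The number of called genes of the set moved with single libraries, and so did the share of all tested genes called higher in pouch. Without pouch replicate 3, 24 of the 188 were called, beside 0.161% of all tested genes. Without soil replicate 1 there were 28, beside 0.266%, and without soil replicate 2 there were 49, beside 0.528%. Without pouch replicate 2 there were 53, beside 0.386%. Without pouch replicate 1 the number was 126, beside 3.17%, and without soil replicate 3 it was 160, beside 4.38%.

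The scaling of the libraries bears on the limit itself. The TMM factors were 0.997, 1.21 and 1.20 in pouch replicates 1, 2 and 3, and 0.941, 0.869 and 0.845 in soil. Their mean difference, pouch minus soil, was 0.36 on the log2 scale, so the ratio of a typical gene is smaller with TMM scaling than with library totals. With TMM-scaled CPM 58 genes met the whole rule, and 57 of them were among the 188. Every pouch factor was above every soil factor, so a gene at the 2-fold limit with TMM is also at it with library totals. This overlap is therefore largely fixed in advance and is no agreement between scalings. TMM divides each library by a single factor, and with these factors any gene that met the 2-fold limit keeps pouch above soil. That all 188 did so is therefore fixed by the rule and is no check of the set. Their ratio with this scaling was at least 1.40, with a median of 1.78, and 166 of the 188 were at 1.5 or more. The turned-round rule for genes higher in soil was met by 144 genes with TMM scaling, against 73 with library totals.

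With the deposited TPM in place of CPM, 193 genes met the rule and 102 of them were among the 188. Of the 86 that did not, 78 had a mean under 10 TPM and so missed the limit on the level. TPM is made from the same estimated counts, so the TPM ratio of a gene largely repeats the CPM ratio used in the choice and is no check of it. In 178 of the 188 genes the lowest pouch TPM was at least 2 times the highest soil TPM. In all 188 the lowest pouch TPM was above the highest soil TPM. TPM values are shares of a total, and the leading model of each library took 3.35 to 8.36% of that total in pouch libraries and 14.5 to 19.8% in soil libraries.

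The rule used neither length nor identifier. The 188 transcript models had a median length of 1821 bases (quartiles 1285 and 2470), against 2084 bases (1482 and 2914) over eligible genes. The set ran from 216 to 9570 bases. Under 500 bases, 9 of 302 eligible genes (2.98%) were in the set, and from 4000 bases upward 10 of 1138 (0.879%) were. Between 1000 and 2000 bases the share was 2.02%, and between 2000 and 3000 bases it was 1.38%. By level, 78 of 2932 eligible genes (2.66%) with a mean of 10 to under 20 CPM were in the set. The share was 1.54% from 20 to under 50 CPM, 1.23% from 50 to under 100 CPM, 0.594% from 100 to under 200 CPM and 1.34% from 200 CPM upward. Length and level vary together across genes and were not separated.

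**Figure D5:**
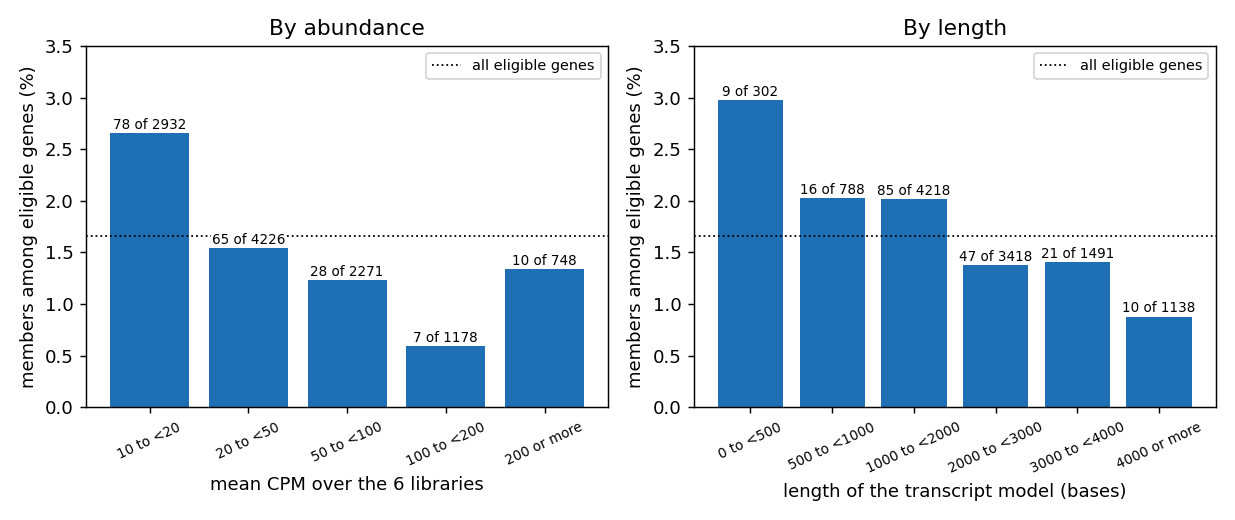
Share of eligible genes that belong to the set, in percent, by mean level over the 6 libraries (left) and by length of the transcript model (right), with the counts above each bar and the share over all eligible genes (1.66%) as a dotted line. The share is 2.66% in the lowest class of level and 2.98% in the shortest class of length, where it rests on 9 genes.

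Fractional counts, which mark reads divided between similar sequences, occurred in 30 of the 188 genes (16.0%), against 17.0% of eligible genes. By the digit in front of the letter G in the identifier, which runs from 1 to 7, the share of eligible genes in the set was between 1.41 and 1.87%. The highest number, 41 genes, carried the digit 3, which is also the largest class of eligible genes at 2343. In the order of identifiers, 3 pairs of genes of the set stood next to each other, at ranks 19 and 50, 20 and 54, and 173 and 179. Another gene of the set lay within 5 identifiers on either side of 10 of the 188 genes (5.32%), and of 928 eligible genes (8.17%). The shares by digit lie near the 1.66% over all eligible genes, and no trait of the set is read from these counts.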

How the data were processed

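RNA sequencing libraries from 6 pools of shoot apices were analysed, 3 labelled germination pouch and 3 labelled soil plate. Per the submitters' processing notes, fastp 0.23.4 and kallisto 0.46.1 were used. The index, the strand setting, the genome build and any sequencing batch are not given in the sources used here. Per the file headers, the deposited tables hold estimated counts (expected counts, partly fractional, not normalized) and TPM values made by the authors.

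CPM was computed from estimated counts and library totals in Python 3.11.15. For tests, counts were rounded to whole numbers, filtered with filterByExpr and scaled by TMM. All genes were then compared between the groups with edgeR 4.0.16 in R 4.3.3 (quasi-likelihood test, two-sided, Benjamini-Hochberg adjustment, no replicate block). The standard error was derived from the log2 fold change and its F statistic (|log2 fold change| / √F). DESeq2 1.42.0 and limma 3.58.1 (voom) were alternatives. In counts simulated for 17794 genes of the pouch and soil comparison, with 200 genes changed 4-fold, edgeR called 61.5% of the 200, and 10 of its 133 calls were false. Intervals and floors cover counting error only, and no pair of libraries agreed within sampling noise (chi-square per degree of freedom at least 42.7).

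The members, lists and tests were chosen with earlier results of these data known. Named are the member with the largest ratio and the one with the highest mean CPM, both among members without fractional counts. Lists by gene name were not run, since no identifier matched.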

Additional observations from a re-analysis of the deposited data

How the results depend on the processing

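The number of genes meeting the rule, 188, became 58 with TMM-scaled CPM, 862 with a limit of 1.5 times, 33 with 3 times and 110 with a mean of at least 20 CPM. Leaving out 1 library at a time gave 195 to 546 genes. It stayed within 1.5 times of 188 with TPM, with a mean of at least 5 CPM, with abundant models kept and without fractional counts. The number of members called higher in pouch, 160, ran from 24 to 160 when 1 library was left out, and these fits also had fewer libraries. The number called over all tested genes, 1396, became 2595 with library totals alone, 2454 with DESeq2 and 2228 with limma-voom. It ran from 103 to 2102 when 1 library was left out. The median log2 fold change of the members, 1.37, became 1.72 with library totals alone, when the median of all tested genes was 0.43. It ran from 1.28 to 1.41 when 1 library was left out. Apart from the construction named, the cause of these changes was not tested.

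With the replicate number as a block, 99 members and 628 genes over all were called. Across genes, the deviations from the group mean correlated at -0.03, -0.02 and -0.03 between libraries with the same number. No library correlated best with its own number, so no pairing by number was seen. Whether libraries shared a sowing or a batch was not tested. Both named genes kept their direction in all 12 alternatives. They were chosen with every pouch library at least 2 times every soil library, so this is no check of them. CsaV3_2G027860.1, at a log2 fold change of 5.78, lost its call without pouch replicate 3 (5.56, edgeR adjusted p = 0.0585) and without soil replicate 2 (5.81, edgeR adjusted p = 0.0578). CsaV3_3G020560.1, at 2.09, lost its call without soil replicate 1 (2.06, edgeR adjusted p = 0.0574). Over the 12 alternatives, DESeq2 and limma-voom included, the adjusted p ran from 0.00206 to 0.0585 and from 2.46e-12 to 0.0574 for these genes.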
